A study of Mus musculus with 17 samples.

Results

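Untreated AB12 tumors collected 14 days after injection (d14, n = 3) were compared with untreated tumors collected 10 days after injection (d10, n = 5), which together are 8 of the 17 RNA-seq libraries of the series. The AB12 line derives from mouse mesothelioma, and its cells were placed in the peritoneum of 8-week-old female BALB/c mice. The 2 groups share strain, cell line and site of injection, and neither received an agent. In its histology the study described d10 tumors as viable and d14 tumors as larger, with necrotic foci. The part of this in the changes below was not tested. Each library came from the tumor tissue of a single mouse and therefore holds RNA of AB12 cells, stroma and leukocytes together, so that fewer cells of a type and less RNA per cell cannot be told apart. The 3 untreated tumors of d6 are given beside the other groups for their level only.

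Mesothelioma arises from the mesothelial lining of body cavities. CD8 T cells and NK cells recognize tumor cells and release perforin and granzymes, while T cell receptor signals, inhibitory receptors, interferons, antigen presenting cells and chemokines set how strong and how long this response is. Macrophages are usually abundant in such tumors and can present antigen, clear dying cells and produce lipid mediators.

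Protein coding genes came first in the comparison, and the d10 tumors were also used in 2 parts, replicates 1 to 3 and replicates 4 and 5, which counts of pseudogenes set apart. Pseudogenes took 0.568 to 0.651% of the counts in d10 replicates 1 to 3, 0.471 and 0.473% in d10 replicates 4 and 5, and 0.652 to 0.695% at d14. Total counts ranged from 51159050 to 88029944 at d10 and from 72413343 to 96646208 at d14, and protein coding genes took 96.5 to 97.9% of them. Genes typed as intronic, small nucleolar or TEC, the annotation's class of transcripts not yet tested by experiment, took 0.0995 to 0.152% at d10 and 0.206 to 0.243% at d14, and these ranges did not overlap. Mesothelial and mesothelioma markers were present in every tumor, with a summed level of 2716 to 4351 normalised CPM (counts relative to the effective size of each library) at d10 and 2872 to 3047 at d14. Liver markers were at 0.118 CPM or less in sum and pancreas markers at 2.39 CPM or less. Values below are CPM scaled with TMM factors over the 11 untreated tumors, listed by replicate number, and log2 fold changes are d14 minus d10.

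Of 14309 tested protein coding genes, 494 fell and 221 rose from d10 to d14, with calls made where the Benjamini-Hochberg adjusted p of edgeR's quasi-likelihood test, over all 17659 tested genes, was under 0.05 and the change more than 2-fold. The background against which lists of genes are read is therefore 5.00% called, 3.45% lower and 1.54% higher. Among the 3350 other genes 115 fell (3.43%) and 447 rose (13.3%), which is 16.8% called, and over all tested genes 7.23% were called. The balance of protein coding genes moved with the d10 tumors used. With d10 replicates 1 to 3 alone 732 fell (5.16%) and 327 rose (2.30%), 7.46% in all. With d10 replicates 4 and 5 alone 529 fell (3.69%) and 457 rose (3.19%), 6.87% in all. In a fit of protein coding genes alone the balance turned round for this part of d10, with 435 lower and 560 higher, while it was 720 lower and 342 higher for d10 replicates 1 to 3. The d14 tumors are the same in both. Within d10, replicates 4 and 5 differed from replicates 1 to 3 in 567 of 14247 protein coding genes (3.98%, of which 2.86% lower and 1.12% higher), so values against each part are given for lists and genes that depend on it. The count depended on single tumors: 166 protein coding genes were called without d14 replicate 2 and 472 without d14 replicate 1, as against 442 and 476 without d10 replicates 2 and 1.

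T cell receptor and proximal signaling genes were lower at d14 in all 24 tested members, with a median log2 fold change of -1.07, and 14 of the 24 fell. Over all tested protein coding genes the median was -0.07. Called members were Cd2, Lat, Cd8b1, Cd247, Skap1, Cd4, Lck, Cd3d, Ubash3a, Sh2d1a, Zap70, Prkcq, Cd5 and Lcp2, which encode coreceptors, CD3 and zeta chains, kinases and adaptors of the T cell receptor. Used alone, d10 replicates 1 to 3 gave a median of -0.94 with 9 members called, and d10 replicates 4 and 5 gave -1.24 with 14 called. Without d14 replicate 2 it was -0.85, and Cd2, Lat, Cd8b1, Cd247, Lck and Skap1 were the 6 members called. In 19 of the 24 genes the d14 tumors lay below all d10 tumors, a pattern found in 14.8% of all tested protein coding genes.

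Cd2, an adhesion and costimulatory receptor of T and NK cells, was at 21.5, 24.1, 19.3, 31.0 and 18.1 CPM in the d10 tumors and at 8.37, 5.01 and 8.99 CPM in the d14 tumors. Its log2 fold change was -1.63 (standard error 0.24, edgeR, adjusted p = 0.0060). Lat, the adaptor that links the T cell receptor to its downstream enzymes, was at 16.0, 18.0, 14.0, 19.4 and 14.6 CPM at d10 and at 6.80, 3.78 and 6.60 CPM at d14. It fell by 1.53 on the log2 scale (standard error 0.22, edgeR, adjusted p = 0.0057). In both genes the groups were apart, and d14 replicate 2 had the lowest level of the 8 tumors.

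Cd8b1, the beta chain of the CD8 coreceptor, was at 40.5, 43.6, 35.2, 57.0 and 46.2 CPM at d10 and at 18.0, 10.9 and 21.8 CPM at d14 (log2 fold change -1.41, standard error 0.23, edgeR, adjusted p = 0.0071). At d6 its levels were 5.02, 4.50 and 4.74 CPM, so the d14 tumors lay between the d6 and the d10 tumors. Cd8a, the alpha chain, had a log2 fold change of -0.73 (standard error 0.19, edgeR, adjusted p = 0.027), within a fold change of 2. For Cd247, which encodes the zeta chain, the log2 fold change was -1.25 (standard error 0.22, edgeR, adjusted p = 0.0082), but 60.3% of its exonic bases overlap other genes, mainly Pou2f1, and no source used here says if counting was by strand. Cd3e and Cd6 were within a fold change of 2, at -0.99 and -0.91.

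Of the 16 transcription factors of T cells, 3 fell and none of the others was called. Tbx21, the T-bet factor of type 1 effector cells, was at 12.5, 15.8, 11.5, 18.0 and 14.3 CPM at d10 and at 5.93, 3.48 and 8.15 CPM at d14 (log2 fold change -1.31, standard error 0.27, edgeR, adjusted p = 0.012). Lef1, a factor of naive and memory-like T cells, changed by -1.57 (standard error 0.29) and Batf, an AP-1 factor of effector cells, by -1.09 (standard error 0.18). Tox, which is linked to T cell exhaustion, had a log2 fold change of -0.05 and Prdm1 one of 0.29. The list had a median of -0.56, and -0.44 and -0.60 against d10 replicates 1 to 3 and 4 and 5. Batf was no longer called without d14 replicate 2.

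Among the 13 homing and residency genes, with a median of -0.78, Xcl1 and Cxcr3 fell. Xcl1, a chemokine that CD8 T and NK cells make to attract cross-presenting dendritic cells, was at 10.6, 7.23, 10.6, 4.98 and 8.04 CPM at d10 and at 3.09, 3.24 and 2.48 CPM at d14 (log2 fold change -1.52, standard error 0.27, edgeR, adjusted p = 0.0087). Cxcr3, the receptor of Cxcl9 and Cxcl10, had a log2 fold change of -1.26 (standard error 0.37, edgeR, adjusted p = 0.040), with -0.85 relative to d10 replicates 1 to 3 and -1.71 relative to d10 replicates 4 and 5, and the call was lost without any one tumor other than d10 replicate 3. Its ligands Cxcl9 and Cxcl10 had log2 fold changes of -0.65 and -0.52, within a fold change of 2, although the d14 tumors were below all d10 tumors in both.

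Cytotoxic effector genes split into members that fell and members that did not. Of 18 tested genes Gzma, Gzmb, Gzmk, Ifng, Ctsw and Nkg7 fell, with a median of -0.76 over the list (-0.81 and -0.71 against d10 replicates 1 to 3 and 4 and 5). The promoters of 3 of its genes are shown because they belong to the effector genes the comparison turns on and 2 of them, Gzma and Gzmb, fell by the most in the list. Each holds 250 bases before to 50 bases after the start of the gene in RefSeq (GRCm38.p6), read 5' to 3' on the strand of the gene, and capitals mark the RUNX core letters TGTGGT on either strand.
Gzma, chr13:113100932-113101231, minus strand: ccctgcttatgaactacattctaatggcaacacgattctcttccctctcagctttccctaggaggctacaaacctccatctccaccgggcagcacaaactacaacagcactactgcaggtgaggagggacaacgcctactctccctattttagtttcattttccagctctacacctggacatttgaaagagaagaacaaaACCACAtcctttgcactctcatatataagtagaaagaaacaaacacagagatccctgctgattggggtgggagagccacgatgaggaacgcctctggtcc
Gzmb, chr14:56262285-56262584, minus strand: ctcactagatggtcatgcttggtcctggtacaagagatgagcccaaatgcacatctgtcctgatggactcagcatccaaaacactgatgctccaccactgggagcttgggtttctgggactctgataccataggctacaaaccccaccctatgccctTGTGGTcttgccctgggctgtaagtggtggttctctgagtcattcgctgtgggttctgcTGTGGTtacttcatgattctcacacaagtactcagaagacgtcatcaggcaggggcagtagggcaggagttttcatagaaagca
Prf1, chr10:61297586-61297885, plus strand: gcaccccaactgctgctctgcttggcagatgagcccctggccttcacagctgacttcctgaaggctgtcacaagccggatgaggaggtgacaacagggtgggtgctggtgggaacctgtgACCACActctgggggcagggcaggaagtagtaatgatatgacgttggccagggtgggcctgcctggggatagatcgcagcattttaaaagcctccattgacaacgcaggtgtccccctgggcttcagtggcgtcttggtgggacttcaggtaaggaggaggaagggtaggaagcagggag
The RUNX letters begin 50 bases before the start in Gzma, 93 and 34 bases before it in Gzmb and 130 bases before it in Prf1. For Gzmb the window, from 56262285, lies outside the gene as annotated for counting, which starts at 56262260 on this minus strand. Its distances therefore hold for the RefSeq start only. They occur in 10 of the 16 promoters of the list that RefSeq holds (62.5%), and in 18.9% of the promoters of all 27025 genes. Like shares were held by inhibitory receptors (66.7%, 6 of 9) and by eosinophil, mast cell and basophil markers (60.0%, 6 of 10). NK cell markers also held a like share (58.3%, 7 of 12). T cell receptor genes (26.7%, 4 of 15) and most other lists lay nearer to the share of all genes. The 10 effector genes with the letters were Prf1, Gzma, Gzmb, Gzmc, Gzmd, Gzme, Gzmf, Gzmg, Nkg7 and Srgn. Of these, Gzma, Gzmb and Nkg7 were called and the others, Prf1 among them, not. The other called members of the list, Gzmk, Ifng and Ctsw, had no such letters or no promoter in RefSeq. Gzmc, Gzmd, Gzme, Gzmf and Gzmg are close paralogs of the same cluster, so their promoters may not be independent of each other. RUNX3 is a factor of CD8 T cell differentiation, and a match of letters is no evidence of binding. The gene Runx3 itself had a log2 fold change of -0.31.

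Gzma encodes granzyme A, a tryptase of T and NK cell granules, and lies on chromosome 13 (113093825 to 113100981, GRCm38). Its level was 54.2, 98.4, 71.1, 67.2 and 59.9 CPM in the d10 tumors and 12.7, 4.71 and 9.44 CPM in the d14 tumors, a log2 fold change of -2.98 (standard error 0.34, edgeR, adjusted p = 0.0042). Against the parts of d10 the change was -3.08 and -2.83. The d14 tumors also lay below the d6 tumors, which held 60.2, 45.6 and 41.7 CPM, a comparison given with no test.

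Gzmb encodes granzyme B, which cleaves caspases in target cells, and lies on chromosome 14 (56258838 to 56262260). It was at 278, 363, 380.4, 236 and 272 CPM at d10 and at 102, 68.9 and 76.4 CPM at d14 (log2 fold change -1.91, standard error 0.21, edgeR, adjusted p = 0.0042). Gzmk, granzyme K, fell from 11.1, 12.7, 9.59, 17.1 and 14.7 CPM to 4.50, 2.11 and 4.33 CPM (log2 fold change -1.85, standard error 0.29, edgeR, adjusted p = 0.0066). For all 3 granzymes the call held under each of the alternatives tried.

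Ifng, the interferon of type 1 responses, was at 20.1, 24.3, 17.9, 10.7 and 9.39 CPM at d10 and at 8.36, 4.45 and 6.26 CPM at d14. Its log2 fold change was -1.39 (standard error 0.35, edgeR, adjusted p = 0.024). The fall was -1.73 relative to d10 replicates 1 to 3 and -0.66, no longer called, relative to d10 replicates 4 and 5, and replicates 4 and 5 were themselves below replicates 1 to 3 by 1.10 on the log2 scale (standard error 0.16, edgeR, adjusted p = 0.0061). Of the exonic bases of Ifng, 26.0% overlap Gm49751 on the same strand.

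Prf1, perforin, was at 134, 199.8, 159, 134 and 179.8 CPM at d10 and at 108, 70.7 and 97.1 CPM at d14. The groups did not overlap, and the log2 fold change of -0.83 (standard error 0.19, edgeR, adjusted p = 0.017) was within a fold change of 2. Gzmd, Gzme, Gzmf and Gzmg, the clustered granzymes of chromosome 14, had log2 fold changes of -0.07, 0.09, 0.07 and -0.19 with standard errors of 0.45 to 0.59. Gzmf was at 150.5, 325, 186, 36.2 and 194 CPM at d10 and at 244, 188 and 137 CPM at d14, so the groups overlapped and d10 replicate 4 stood lowest. Gzmc, of the same cluster, had a log2 fold change of -1.28 (standard error 0.46, edgeR, adjusted p = 0.077), which was -1.51 and called with d10 replicates 1 to 3 alone and -0.83 and not called with d10 replicates 4 and 5 alone. These granzymes are close paralogs, and since only unique reads were kept, reads that match several of them can be lost and the count of each is uncertain. The plot of T cell and cytotoxic genes shows these levels for every untreated tumor.

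**Figure D1:**
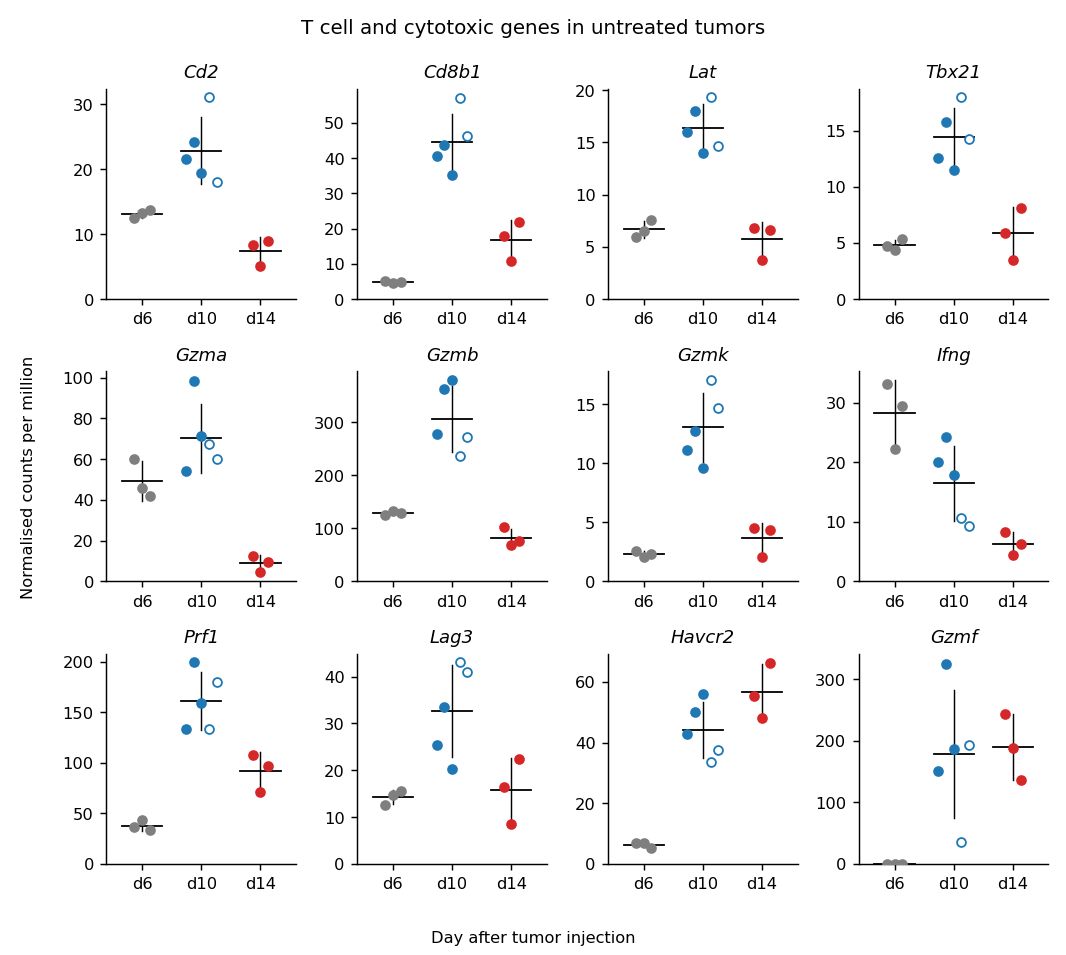
Each panel plots normalised CPM (linear axis from 0) of a gene in the untreated tumors of d6, d10 and d14, with points for tumors, open points for d10 replicates 4 and 5, and lines for the mean and SD. Gzma, Gzmb, Gzmk, Cd2, Cd8b1, Lat and Tbx21 lie lower in all 3 d14 tumors than in all 5 d10 tumors, whereas Lag3, Havcr2 and Gzmf overlap.

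Inhibitory receptors had a median log2 fold change of -0.74 over 10 tested genes, and Cd160 and Lag3 fell. Cd160 was at 2.74, 3.67, 3.24, 3.59 and 3.57 CPM at d10 and at 1.57, 1.33 and 1.89 CPM at d14 (log2 fold change -1.09, standard error 0.20, edgeR, adjusted p = 0.0094). Lag3, which binds MHC class II, was at 25.3, 33.6, 20.3, 43.2 and 41.0 CPM at d10 and at 16.4, 8.49 and 22.4 CPM at d14 (log2 fold change -1.07, standard error 0.33, edgeR, adjusted p = 0.0496). Its groups overlapped and the call was lost against d10 replicates 1 to 3 (-0.77). Both calls were lost without d14 replicate 2, and neither was made once a trend on exonic length was removed.

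Pdcd1, which encodes PD-1, was at 24.2, 35.9, 25.2, 47.5 and 43.6 CPM at d10 and at 20.3, 14.4 and 28.04 CPM at d14 (log2 fold change -0.77, standard error 0.28, edgeR, adjusted p = 0.078), with values of -0.46 and -1.12 against d10 replicates 1 to 3 and 4 and 5. Havcr2, which encodes TIM-3 and is also found on myeloid cells, had the opposite sign, at 42.9, 50.2, 56.1, 33.5 and 37.5 CPM at d10 and 55.5, 48.1 and 66.2 CPM at d14 (log2 fold change 0.34, standard error 0.18, edgeR, adjusted p = 0.20). Neither gene passed the test against all 5 d10 tumors. Against d10 replicates 4 and 5 alone Pdcd1 was called (edgeR, adjusted p = 0.020). Havcr2 was at 0.67 there (edgeR, adjusted p = 0.019), within a fold change of 2, and at 0.16 against replicates 1 to 3. Ctla4 was listed at 0 or at most 0.0302 CPM in these 8 tumors and was not tested, and since Kif11, a motor protein that dividing cells need, was likewise listed at 0.0538 CPM or less, these entries are not read as absence of the RNA.

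Of 9 tested markers of regulatory T cells Tnfrsf18 fell, and the median was -0.84 (-0.55 and -0.65 for the parts of d10). The summed level of 195 to 324 CPM at d10 and 171 to 209.8 CPM at d14 overlapped. Tnfrsf18, which encodes GITR, was at 5.92, 7.89, 5.58, 7.55 and 5.74 CPM at d10 and at 3.49, 1.86 and 2.92 CPM at d14 (log2 fold change -1.26, standard error 0.24, edgeR, adjusted p = 0.010). Foxp3, the lineage factor, was at 2.74, 1.51, 2.68, 3.31 and 1.47 CPM at d10 and at 0.873, 0.915 and 1.84 CPM at d14 (log2 fold change -0.96, standard error 0.37, edgeR, adjusted p = 0.091).

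NK cell markers had a median of -0.45 over 11 tested genes (-0.58 for d10 replicates 1 to 3 and -0.23 for replicates 4 and 5), and Klrb1c, Ncr1 and Klrg1 fell, each no longer called without d14 replicate 2. Ncr1, the activating receptor NKp46, was at 4.12, 5.62, 5.15, 3.64 and 2.73 CPM at d10 and at 1.83, 0.941 and 1.52 CPM at d14 (log2 fold change -1.59, standard error 0.31, edgeR, adjusted p = 0.011). Klrg1, which effector CD8 T cells also carry, had a log2 fold change of -1.55 (standard error 0.29). The summed level of the 15 NK markers was 130.1 to 200.2 CPM at d10 and 139.8 to 162 CPM at d14, so the ranges overlapped.

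B and plasma cell markers had a median of -1.17, but edgeR called none of the 13, with 2 at an unadjusted p-value below 0.05 and 1 called by DESeq2. Their summed level was 79.6 to 468 CPM at d10, highest in d10 replicate 4, and 78.2 to 163 CPM at d14. The median was -0.42 relative to d10 replicates 1 to 3 and -1.95 relative to d10 replicates 4 and 5. Of 112 immunoglobulin variable genes 5 were called lower (4.46%) against all 5 d10 tumors, near the 3.45% called lower over all tested genes, and DESeq2 called 18. That count depended on the part of d10. It was 4 lower with d10 replicates 1 to 3 alone and 34 lower with replicates 4 and 5 alone, where 3.69% of protein coding genes were called lower. Their median also depended on the part of d10. It was -1.17, with 0.02 relative to d10 replicates 1 to 3 and -1.58 relative to d10 replicates 4 and 5.

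Macrophage genes fell in part. Of 21 tested markers of monocytes and macrophages C1qc, C1qb, C1qa, Folr2, Arg1, Cd163 and Cd68 fell and none rose, with a median of -0.67 (-0.66 and -0.54 against d10 replicates 1 to 3 and 4 and 5). C1qa, C1qb and C1qc encode the 3 chains of C1q, the recognition unit of the classical complement pathway, and lie side by side on chromosome 4 (136880129 to 136898803). C1qa was at 541, 638, 365, 565 and 405 CPM at d10 and at 202, 128 and 196 CPM at d14 (log2 fold change -1.54, standard error 0.22, edgeR, adjusted p = 0.0060). The other two chains fell by 1.54 and 1.56 on the log2 scale, and all 3 calls held under each alternative.

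Folr2, a folate receptor of tissue macrophages, fell by 1.53 on the log2 scale (standard error 0.23), although 63.1% of its exonic bases overlap Gm10602. Arg1, which degrades arginine, was at 1795, 2459.6, 1518, 737 and 932 CPM at d10 and at 798, 560.0 and 559 CPM at d14 (log2 fold change -1.24, standard error 0.37, edgeR, adjusted p = 0.044). The change of Arg1 was -1.61 relative to d10 replicates 1 to 3 and -0.39 relative to d10 replicates 4 and 5, and d14 replicate 1 was above d10 replicate 4. Spp1, which encodes osteopontin, had a log2 fold change of 0.51 (standard error 0.20, edgeR, adjusted p = 0.093), and Mrc1, Apoe and Gpnmb had ones of -0.34, -0.22 and 0.06. Without d14 replicate 2 the calls of Arg1 (-1.15), Cd163 (-1.20) and Cd68 (-0.84) were lost, and the C1q chains and Folr2 were the 4 markers called.

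Resident peritoneal macrophage markers had a median of -0.83 over 12 genes, and Alox15 and Cd5l fell. Cd5l, a secreted scavenger protein of macrophages, was at 21.8, 27.3, 21.8, 23.6 and 13.9 CPM at d10 and at 9.90, 3.94 and 6.17 CPM at d14 (log2 fold change -1.71, standard error 0.31, edgeR, adjusted p = 0.0089). The list median was -1.07 against d10 replicates 1 to 3, with 7 called lower, and -0.36 against d10 replicates 4 and 5, with 1. The summed level of the list did not follow its median, at 391 to 512 CPM at d10 and 444 to 533 CPM at d14. Ltbp1, a matrix protein that binds latent TGF-beta and that many cell types make, took most of that sum, with a mean of 244 CPM at d10 and 415 CPM at d14 and no overlap between the groups (log2 fold change 0.75, standard error 0.18, edgeR, adjusted p = 0.020). Gata6, the factor of large peritoneal macrophages, had a log2 fold change of -0.85 and was not called.

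Ocstamp, a membrane protein needed for fusion of osteoclast precursors and giant cells, lies on chromosome 2 (165393760 to 165400405). It was at 11.1, 13.2, 8.88, 10.6 and 9.06 CPM at d10 and at 2.97, 1.66 and 2.27 CPM at d14 (log2 fold change -2.21, standard error 0.23, edgeR, adjusted p = 0.0042). The parts of d10 differed by -0.21 on the log2 scale (replicates 4 and 5 minus 1 to 3), and the fall was -2.29 and -2.10 against them.

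Antigen presentation and interferon gamma response genes had a median of -0.50 over 28 genes, with H2-Ab1 and Socs1 lower and Nlrc5 higher. H2-Ab1, the beta chain of the MHC class II molecule I-A, was at 1337, 1545, 1125, 1192 and 815 CPM at d10 and at 420.1, 259.7 and 590.2 CPM at d14 (log2 fold change -1.52, standard error 0.28, edgeR, adjusted p = 0.0093). H2-Aa, its alpha chain, H2-Eb1 and Cd74 had log2 fold changes of -0.93, -0.82 and -0.56, within a fold change of 2. Ciita, the activator of MHC class II genes, was at 84.6 to 123 CPM at d10 and at 91.0 to 176 CPM at d14 (log2 fold change 0.39, standard error 0.20, edgeR, adjusted p = 0.19).

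Nlrc5, the activator of MHC class I genes, was at 84.9, 88.6, 116, 97.2 and 94.1 CPM at d10 and at 183, 213 and 210.3 CPM at d14. It rose by 1.05 on the log2 scale (standard error 0.12, edgeR, adjusted p = 0.0042). Its change was 0.93 once a trend on exonic length was removed and then within a fold change of 2. The class I genes H2-K1, H2-D1 and B2m had log2 fold changes of -0.96, -0.63 and -0.30. Socs1, a feedback inhibitor of cytokine signaling, changed by -1.16 (standard error 0.24), a call lost without d14 replicate 2.

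Type I interferon-stimulated genes had a median of 0.22, with 22 of 28 above 0, and were 0.20 and 0.22 against d10 replicates 1 to 3 and 4 and 5. The only call was a fall of Ifi27l2a, from 17.7, 25.9, 20.9, 27.4 and 22.5 CPM at d10 to 13.8, 5.52 and 9.47 CPM at d14 (log2 fold change -1.27, standard error 0.27, edgeR, adjusted p = 0.015), and it was lost without d14 replicate 2. Mx1, an antiviral GTPase, was at 7.15, 7.06, 29.1, 10.1 and 10.6 CPM at d10 and at 27.5, 22.8 and 15.1 CPM at d14 (log2 fold change 0.75, standard error 0.45, edgeR, adjusted p = 0.26). At d6 it was at 61.2 to 194 CPM, above both later days.

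Dendritic cell markers had a median of -0.56 (-0.21 for d10 replicates 1 to 3 and -0.41 for replicates 4 and 5), and Itgax and Batf3 fell among 13. Itgax, which encodes CD11c, was at 97.7, 104, 53.9, 117 and 79.4 CPM at d10 and at 33.9, 19.9 and 36.3 CPM at d14 (log2 fold change -1.60, standard error 0.27, edgeR, adjusted p = 0.0079). Batf3, the factor of cross-presenting dendritic cells, changed by -1.36 (standard error 0.22, edgeR, adjusted p = 0.0066). Xcr1, Clec9a and Flt3, further genes of these cells, had log2 fold changes of 0.30, -0.63 and 0.37 and did not pass the test.

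Of 31 chemokines and inflammatory cytokines Ccl24, Ccl11, Ccl8, Cxcl16, Il10, Ccl6 and Ccl9 fell and none rose, with a median of -0.40 (-0.57 for d10 replicates 1 to 3 and -0.24 for replicates 4 and 5). Without d14 replicate 2 Ccl11 was the 1 member called, and with d10 replicates 4 and 5 alone 3 were called, Ccl11, Ccl8 and Cxcl16. Among them Ccl24 and Ccl11, eotaxins that attract eosinophils through Ccr3, fell the most. Ccl24 was at 78.1, 82.8, 38.7, 13.8 and 18.7 CPM at d10 and at 10.1, 8.16 and 2.85 CPM at d14 (log2 fold change -2.74, standard error 0.69, edgeR, adjusted p = 0.025). The d10 parts stood apart by 2.08 on the log2 scale, and against d10 replicates 4 and 5 the change of -1.21 was not called. Without any one d14 tumor, or without d10 replicate 1 or 2, Ccl24 was not called either.

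Ccl11 was at 8.57, 11.3, 5.77, 5.80 and 3.04 CPM at d10 and at 1.56, 1.99 and 1.24 CPM at d14 (log2 fold change -2.13, standard error 0.40, edgeR, adjusted p = 0.010), a call that held under each alternative. Ccl8, a monocyte chemokine, changed by -1.44 (standard error 0.30) and Cxcl16, the ligand of Cxcr6, by -1.27 (standard error 0.27), and both calls were lost without d14 replicate 2. Il10, Ccl6 and Ccl9 had log2 fold changes of -1.07, -1.08 and -1.10 without that tumor, no longer called. Ccl2, Il1b, Tnf and Csf1 had log2 fold changes of -0.21, 0.08, -0.06 and -0.15.

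Eosinophil markers moved in the same direction. Of 11 tested genes of eosinophils, mast cells and basophils Ccr3, Il5ra and Siglecf fell, and the median was -0.78 (-0.91 for d10 replicates 1 to 3 and -0.47 for replicates 4 and 5). The summed level of the 12 markers was 23.8 to 43.8 CPM at d10 and 13.0 to 28.1 CPM at d14, and these ranges overlapped. Ccr3, the eotaxin receptor, was at 8.27, 10.1, 3.37, 4.74 and 4.005 CPM at d10 and at 1.80, 1.09 and 0.516 CPM at d14 (log2 fold change -2.45, standard error 0.51, edgeR, adjusted p = 0.013). Siglecf, a lectin of eosinophils, changed by -1.70 (standard error 0.36) and Il5ra, the interleukin-5 receptor, by -2.02 (standard error 0.50). Rnase2a, an eosinophil-associated ribonuclease, was at 11.3, 14.7, 9.97, 3.43 and 5.56 CPM at d10 and at 2.57, 2.25 and 0.496 CPM at d14 (log2 fold change -2.37, standard error 0.61, edgeR, adjusted p = 0.027).

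At d6 Ccr3 was at 20.2 to 23.3 CPM and Rnase2a at 30.7 to 52.8 CPM, so in each gene the order of the levels was d6, d10 and d14 from high to low. The calls of Ccr3, Siglecf, Il5ra and Rnase2a were lost without d14 replicate 2, and those of Il5ra and Rnase2a also against d10 replicates 4 and 5. The mast cell genes Cpa3, Mcpt4 and Cma1 had log2 fold changes of -0.52, -0.57 and -0.37 and were not called.

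Neutrophil markers had a median of -0.56 over 16 genes (-0.73 for d10 replicates 1 to 3 and -0.18 for replicates 4 and 5), with Retnlg called lower. Retnlg, resistin-like gamma, lies on chromosome 16 (48872621 to 48874496) and was at 33.4, 38.1, 8.69, 15.2 and 10.2 CPM at d10 and at 3.75, 2.35 and 1.84 CPM at d14 (log2 fold change -3.01, standard error 0.57, edgeR, adjusted p = 0.010), a call lost without d14 replicate 2. S100a8, S100a9 and Csf3r, abundant neutrophil genes, had log2 fold changes of -0.04, 0.03 and -0.15, and none of these passed the test.

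Eicosanoid synthesis turns membrane lipids into prostaglandins and leukotrienes, and the list of its genes and of related enzymes had a median of -0.85 over 22 tested genes. Pla2g2d, Alox15, Ltc4s, Pla2g7, Ggt5, Tbxas1 and Ptgis fell. Ltc4s, the leukotriene C4 synthase, was at 9.67, 14.4, 7.91, 8.05 and 7.42 CPM at d10 and at 3.57, 2.71 and 3.73 CPM at d14 (log2 fold change -1.52, standard error 0.25, edgeR, adjusted p = 0.0075), and 26.4% of its exonic bases overlap Gm26542. Pla2g2d, a secreted phospholipase of lymphoid tissue, was at 7.26, 8.60, 4.12, 18.6 and 8.59 CPM at d10 and at 1.80, 1.14 and 3.28 CPM at d14 (log2 fold change -2.19, standard error 0.50, edgeR, adjusted p = 0.018).

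Ptgs2, the inducible cyclooxygenase, had a log2 fold change of 0.31 and Ptgs1 one of -0.03, so the cyclooxygenases were not among the called members. Without d14 replicate 2 the calls of 5 of the 7 were lost, those of Pla2g2d, Alox15, Pla2g7, Ptgis (-0.79) and Ggt5 (-0.89), and Ltc4s and Tbxas1 were called. Against d10 replicates 4 and 5 Alox15, Pla2g7, Tbxas1 and Ggt5 were not called. With a trend on exonic length removed 4 of the 22 genes were called lower.

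Complement genes had a median of -0.63 over 19 tested members. Besides the C1q chains, Cfd, C6 and Cfp fell. Cfp, properdin of the alternative pathway, changed by -1.18 (standard error 0.21) and C6, a part of the membrane attack complex, by -1.68 (standard error 0.32). Cfd, factor D or adipsin, was at 9.22, 7.97, 6.86, 15.1 and 6.10 CPM at d10 and at 0.457, 2.33 and 0.765 CPM at d14 (log2 fold change -2.95, standard error 0.54, edgeR, adjusted p = 0.0091). C3, the central component, had a log2 fold change of -0.84 and was not called.

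**Figure D2:**
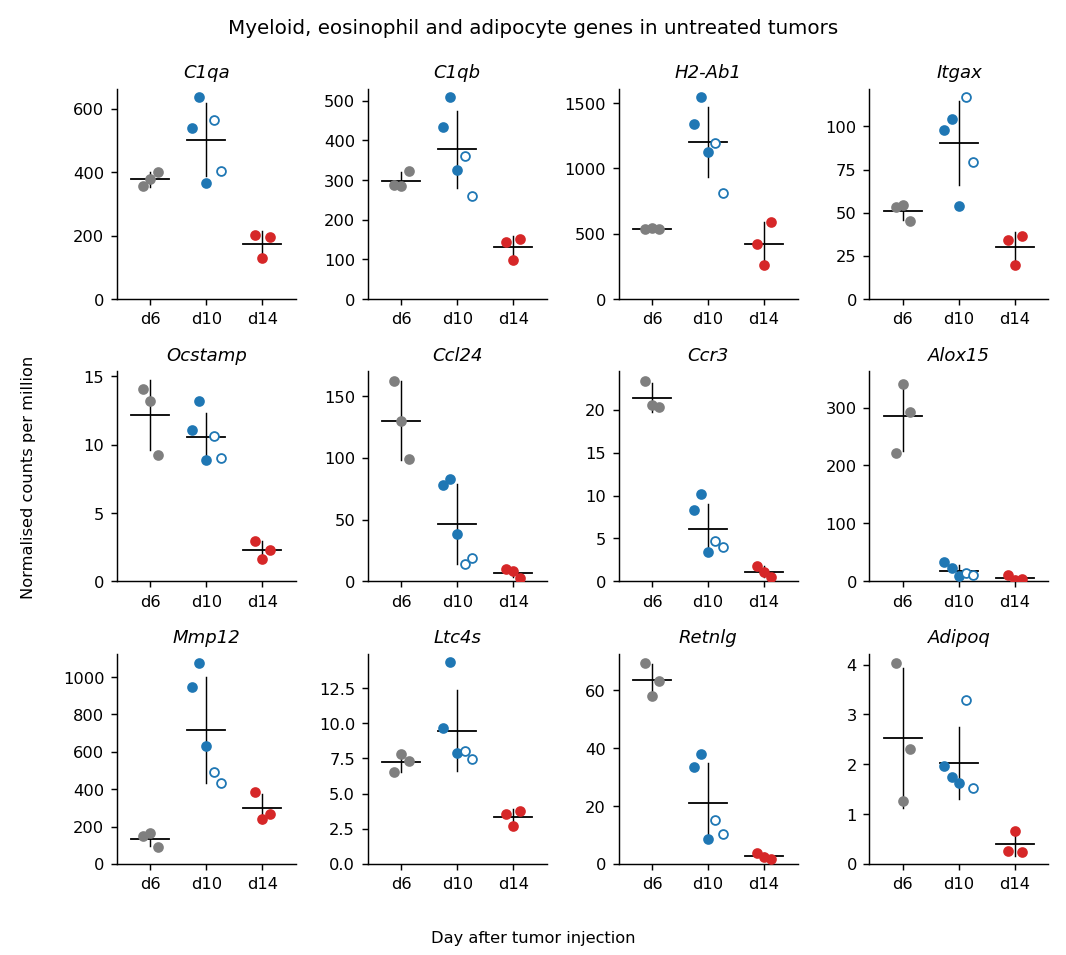
Each panel plots normalised CPM (linear axis from 0) of a myeloid, eosinophil or adipocyte gene in the untreated tumors of d6, d10 and d14, with points for tumors, open points for d10 replicates 4 and 5, and lines for the mean and SD. Apart from Alox15, the 3 d14 tumors lie below all 5 d10 tumors in every panel, and the d10 replicates 4 and 5 lie near the d14 tumors in Ccl24.

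Cfd is also an adipocyte gene, and other adipocyte markers fell with it. Cidec, Adipoq and Plin1, genes of lipid droplets and of adiponectin, had log2 fold changes of -2.63, -2.40 and -2.16, and Cfd, Cidec, Adipoq and Plin1 made up the 4 of 8 tested markers that fell. Adipoq was at 1.97, 1.74, 1.63, 3.30 and 1.53 CPM at d10 and at 0.255, 0.667 and 0.248 CPM at d14. The summed level of the 10 markers was 124 to 226 CPM at d10 and 106 to 128 CPM at d14, and these ranges overlapped. Car3, a carbonic anhydrase of fat and muscle, was at 12.6, 9.57, 7.16, 17.3 and 7.005 CPM at d10 and at 0.941, 4.16 and 2.04 CPM at d14 (log2 fold change -2.19, standard error 0.48, edgeR, adjusted p = 0.016). The part of adjoining fat in the falls of Cfd and Car3 was not tested.

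Skeletal muscle markers reached 31.6 to 64.1 CPM in sum at d10 and 13.0 to 19.2 CPM at d14, and Des and Ckm fell among 5 tested. Most of the sum at both days was Des, the intermediate filament desmin, which smooth muscle cells and pericytes also make, at 62.0, 51.1, 51.6, 47.3 and 29.4 CPM at d10 and at 17.7, 11.4 and 12.4 CPM at d14 (log2 fold change -1.81, standard error 0.25, edgeR, adjusted p = 0.0054). Ckm, the muscle creatine kinase, was at 0.540 CPM or less in all 8 tumors.

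Fibroblast and pericyte markers had a median of -0.69 over 14 genes, and Dpt, Thy1, Myh11 and Tagln fell. Thy1, which T cells make as well as fibroblasts, was at 192, 208, 173, 157 and 158 CPM at d10 and at 78.1, 53.0 and 72.5 CPM at d14 (log2 fold change -1.40, standard error 0.16, edgeR, adjusted p = 0.0042). Dpt, a matrix protein of fibroblasts, changed by -1.54 (standard error 0.32). The smooth muscle genes Myh11 and Tagln had log2 fold changes of -1.11 and -1.10, were not called against d10 replicates 4 and 5, and 67.9% of the exonic bases of Tagln overlap other genes. Pdgfra and Pdgfrb had log2 fold changes of -0.27 and -0.53.

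Extracellular matrix genes had a median of -0.38, with Mmp12 and Col6a2 lower among 35. Mmp12, the macrophage elastase, was at 946, 1076, 633, 495 and 433 CPM at d10 and at 385, 242 and 267 CPM at d14 (log2 fold change -1.28, standard error 0.32, edgeR, adjusted p = 0.024). The change was -1.59 relative to d10 replicates 1 to 3 and -0.64, not called, relative to d10 replicates 4 and 5. Col1a1, a fibrillar collagen, had a log2 fold change of -0.66 and Fn1, fibronectin, one of 0.09.

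Other lists held few calls or none. In the proliferation list edgeR and DESeq2 called none of 29 genes, with 7 at an unadjusted p-value below 0.05 and a median of -0.03. Mki67 was at 437, 300.4, 473, 270.3 and 325 CPM at d10 and at 556, 592 and 571 CPM at d14 (log2 fold change 0.65, standard error 0.18, edgeR, adjusted p = 0.037), within a fold change of 2, while Top2a had a log2 fold change of 0.01 (standard error 0.11). Of 34 hypoxia and glycolysis genes, with a median of -0.01, only Slc16a3 was called. Slc16a3, the lactate exporter MCT4, was at 138, 166, 116, 135 and 149.8 CPM at d10 and at 66.5, 46.5 and 59.7 CPM at d14 (log2 fold change -1.31, standard error 0.16, edgeR, adjusted p = 0.0049). Vegfa had a log2 fold change of 0.58 (standard error 0.18, edgeR, adjusted p = 0.046) and Ldha one of -0.01.

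Among 22 genes of the unfolded protein and amino acid stress response, with a median of -0.24, Cebpb was called, at -1.11 (standard error 0.19), and the change of -0.79 against d10 replicates 4 and 5 was within a fold change of 2. Endothelial markers had a median of 0.10 and none of 18 was called by edgeR or DESeq2, with 2 at an unadjusted p-value below 0.05. The median was 0.55 relative to d10 replicates 1 to 3 and -0.32 relative to d10 replicates 4 and 5, so its sign depended on the part of d10. Red blood cell genes likewise had medians of 0.67 and -0.73 against the parts.

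Of 14 mesothelial and mesothelioma markers edgeR called none, DESeq2 called 1 and 3 had an unadjusted p-value below 0.05, with a median of -0.29. Msln, mesothelin, was at 223, 279, 299.6, 491 and 511 CPM at d10 and at 403, 633 and 489.9 CPM at d14 (log2 fold change 0.48, standard error 0.28, edgeR, adjusted p = 0.24). Its value was 0.90 relative to d10 replicates 1 to 3 and 0.02 relative to d10 replicates 4 and 5. Krt8 and Krt19, keratins of mesothelial cells, had log2 fold changes of -0.27 and -0.31. Of the intestine markers 3 were tested, edgeR and DESeq2 called none and 1 had an unadjusted p-value below 0.05, and the 1 pancreas marker tested, Cela1, had a log2 fold change of -0.50 and was not called.

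**Figure D3:**
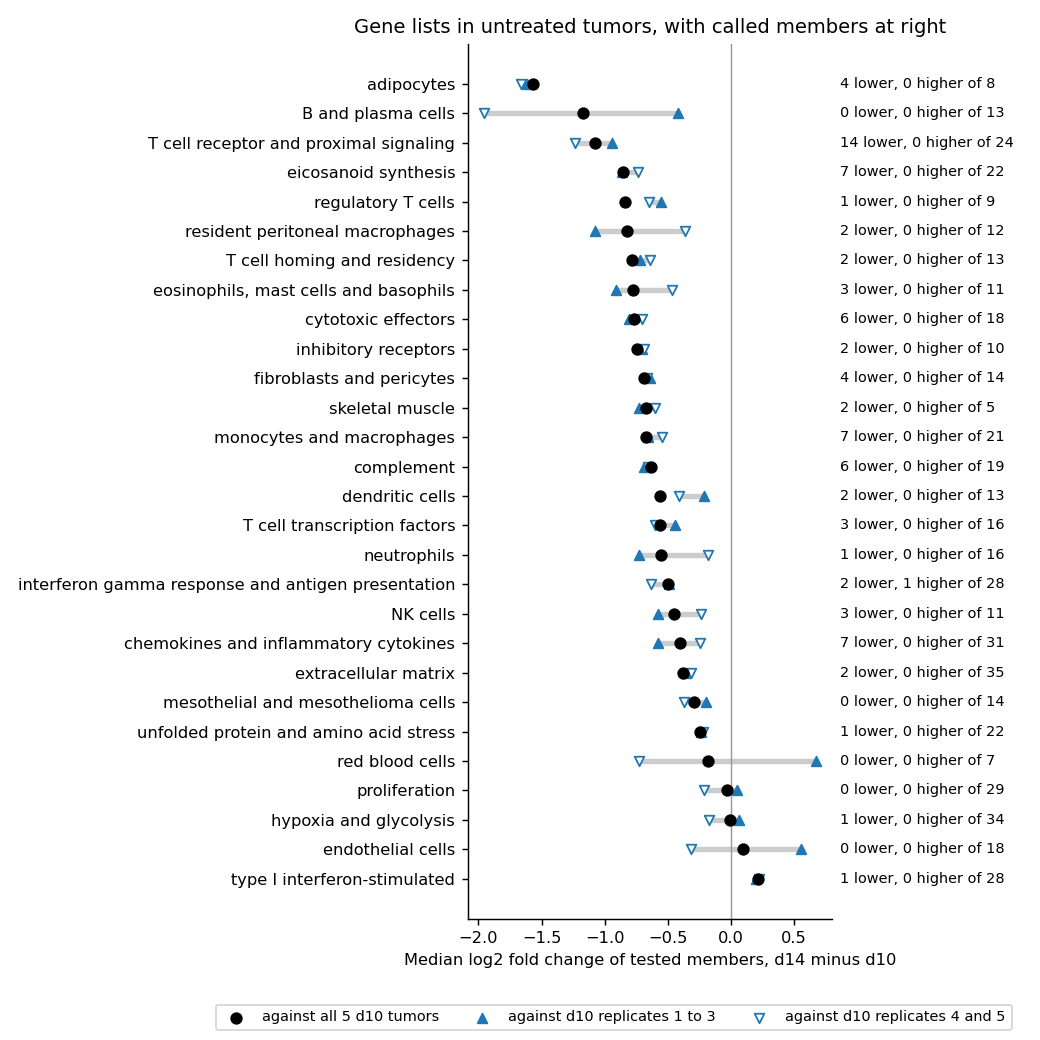
Points give the median log2 fold change, d14 minus d10, of the tested members of each gene list with at least 5 tested genes, against all 5 d10 tumors (circles), d10 replicates 1 to 3 (filled triangles) and d10 replicates 4 and 5 (open triangles), with the called members at right. T cell receptor genes lie near -1 against each set of d10 tumors, while B cell, red blood cell and endothelial genes depend on the part of d10.

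Of the genes named for the size of their fall, Clca3b fell furthest. It encodes a member of the calcium-activated chloride channel regulator family and lies on chromosome 3 (144822623 to 144849357). It was at 8.81, 12.9, 8.88, 5.54 and 11.8 CPM at d10 and at 0.564, 0.445 and 0.685 CPM at d14, a log2 fold change of -4.09 (standard error 0.34, edgeR, adjusted p = 0.0040). At d6 it was at 14.3, 37.9 and 23.3 CPM. Rtn4rl2, a Nogo receptor homologue, was at 10.4, 10.6, 6.97, 10.5 and 8.59 CPM at d10 and at 2.71, 2.12 and 1.88 CPM at d14 (log2 fold change -2.09, standard error 0.21, edgeR, adjusted p = 0.0042). Against the parts of d10 the changes were -4.18 and -3.93 for Clca3b and -2.08 and -2.10 for Rtn4rl2.

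In the fit of all genes against all 5 d10 tumors, the protein coding genes that rose were fewer and more often of low level than those that fell. Of the 221, 101 had a mean below 1 CPM over the 8 tumors and 68 a mean of at least 5 CPM, whereas 123 and 228 of the 494 genes that fell did. The 10 named for the size of their rise were Tagap1, Anxa10, Dnah7b, Per3, Adamts6, Tet2, Insrr, Dst, Lcor and Ankrd16, with log2 fold changes from 1.97 to 1.35. Genes named for size, in both directions, had to show no overlap between the groups and more than a 2-fold change against both parts of d10, so these features are no result for them.

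Anxa10, a calcium-dependent membrane-binding annexin on chromosome 8 (62057042 to 62123150), was at 4.40, 4.55, 6.71, 4.06 and 7.51 CPM at d10 and at 14.2, 29.0 and 13.3 CPM at d14 (log2 fold change 1.77, standard error 0.30, edgeR, adjusted p = 0.0077). At d6 it was at 0.562 to 2.71 CPM, so its levels were lowest at d6 and highest at d14, with no test of d6. Tagap1 was at 2.50, 3.25, 3.13, 2.67 and 2.70 CPM at d10 and at 8.39, 17.4 and 8.07 CPM at d14 (log2 fold change 1.97, standard error 0.26, edgeR, adjusted p = 0.0052). Of its transcript, 93.0% has a near-identical match in other genes, mainly Tagap, so its count is uncertain, as is that of Dnah7b, an axonemal dynein heavy chain with 99.3% matched by Dnah7a.

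Tet2, which oxidizes methylated cytosine in DNA, was at 21.4, 19.6, 37.4, 18.1 and 20.9 CPM at d10 and at 53.1, 73.8 and 60.6 CPM at d14 (log2 fold change 1.39, standard error 0.23, edgeR, adjusted p = 0.0075). Adamts6, a secreted metalloprotease, had a mean of 11.1 CPM (SD 3.79, n = 5) at d10 and of 29.6 CPM (SD 6.95, n = 3) at d14 (log2 fold change 1.40, standard error 0.26, edgeR, adjusted p = 0.0095). In both genes d10 replicate 3 was the highest of the d10 tumors.

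Dst, a giant linker of the cytoskeleton, was at 128, 109.7, 162, 108 and 124 CPM at d10 and at 287, 382 and 326 CPM at d14 (log2 fold change 1.37, standard error 0.15, edgeR, adjusted p = 0.0042). Per3, a gene of the circadian clock, was at 3.87, 3.54, 4.78, 6.44 and 5.64 CPM at d10 and at 8.47, 11.5 and 20.6 CPM at d14 (log2 fold change 1.46, standard error 0.29, edgeR, adjusted p = 0.011), and the time of day of collection is not given in the sources used here. Insrr, a receptor related to the insulin receptor, and Lcor, a corepressor of nuclear receptors, rose by 1.37 (standard error 0.23) and 1.36 (standard error 0.28). Ankrd16, Lcor and Adamts6 were not called without d14 replicate 2, nor Per3 against d10 replicates 4 and 5.

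**Figure D4:**
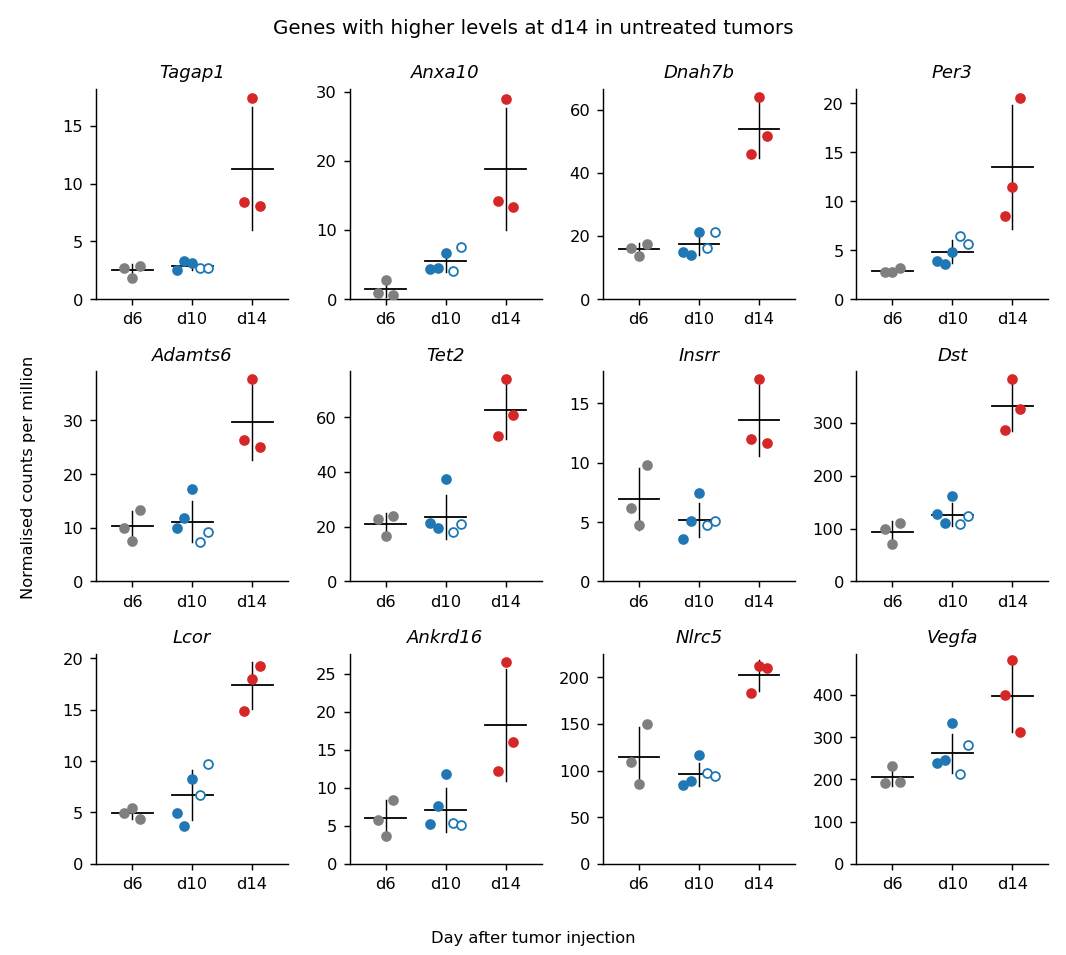
Each panel plots normalised CPM (linear axis from 0) of a gene in the untreated tumors of d6, d10 and d14, with points for tumors, open points for d10 replicates 4 and 5, and lines for the mean and SD. The 10 genes from Tagap1 to Ankrd16 were chosen for having no overlap between d10 and d14, so their separation is fixed by the choice, and Vegfa was within a fold change of 2.

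Of the 73 named genes that were called, 41 remained called without d14 replicate 2, the tumor whose removal ended the most calls. None changed direction, which the choice of called genes largely fixed in advance. The log2 fold changes without it, no longer called, were Lag3 -0.76, Cd3d -0.92, Ifng -1.18, Cd160 -0.97, Cxcr3 -1.03, Batf -0.999, Klrb1c -1.41, Ncr1 -1.36 and Klrg1 -1.47 among T and NK cell genes. Among myeloid, eosinophil and inflammatory genes they were Retnlg -2.93, Ccl24 -2.85, Rnase2a -2.57, Pla2g2d -1.90, Ifi27l2a -0.99, Socs1 -0.92, Ccl8 -1.35, Cxcl16 -1.03, Alox15 -1.44, Pla2g7 -0.90, C6 -1.64, Mmp12 -1.15, Ccr3 -2.42, Il5ra -1.88 and Siglecf -1.59. Among stromal genes and genes that rose they were Col6a2 -0.90, Dpt -1.44, Myh11 -0.92, Tagln -1.15, Ckm -1.92, Ankrd16 0.99, Lcor 1.34 and Adamts6 1.19. With 2 d14 tumors left, the estimate of spread rests on fewer tumors as well.

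Other single tumors ended fewer of the calls. Without d14 replicate 1 the values no longer called were Lag3 -1.10, Cd3d -1.23, Ccl24 -3.11, Rnase2a -2.75, Pla2g2d -2.11, Cxcr3 -1.28, Pla2g7 -1.15, Il5ra -1.80, Dpt -1.40 and Myh11 -1.27. Without d14 replicate 3 they were Ifng -1.38, Ccl24 -2.36, Rnase2a -1.92, Car3 -2.09, Cxcr3 -1.52, Alox15 -1.49, Mmp12 -1.21, Klrb1c -1.74, Myh11 -1.15 and Tagln -0.89. Without d10 replicate 1 they were Lag3 -1.15, Ifng -1.31, Ccl24 -2.48, Rnase2a -2.28, Ankrd16 1.26, Cxcr3 -1.35, Alox15 -1.41, Mmp12 -1.17 and Myh11 -1.05. Without d10 replicate 2 they were Lag3 -1.05, Ifng -1.20, Ccl24 -2.42, Rnase2a -2.11, Cxcr3 -1.28, Alox15 -1.63, Pla2g7 -0.95, Cebpb -0.997, Il5ra -1.86 and Myh11 -1.12. Lag3 and Cxcr3 were also lost without d10 replicate 4 or 5, and Myh11 without d10 replicate 4, while 35 of the 73 genes were called under every alternative tried.

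The size and sign of the change moved with the length of the gene. Protein coding genes that fell had a median exonic length of 2638.5 bases, those that rose one of 4925 bases and those not called one of 4444 bases, and their median GC contents were 53.5, 46.6 and 49.7%. The median log2 fold change was -0.40 for exonic lengths under 1 kb, -0.36 for 1 to 2 kb, -0.19 for 2 to 4 kb, 0.01 for 4 to 8 kb and 0.22 over 8 kb. In single tumors the median deviation of genes over 8 kb minus that of genes under 1 kb was 0.19, 0.29 and 0.32 at d14 and -0.35 to -0.05 at d10, on the log2 scale, so the groups did not overlap.

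With a trend on exonic length removed from each library, 416 protein coding genes fell (2.91%) and 187 rose (1.31%), 4.21% in all. Gzma, Gzmb, Gzmk, Cd2, Cd8b1, H2-Ab1, C1qa and Ocstamp were called in that fit too, at -2.92, -1.82, -1.78, -1.53, -1.33, -1.39, -1.46 and -2.14. The change of Dst, one of the longest of these genes, was 0.76 and no longer called, and Tet2 and Dnah7b stayed called at 1.09 and 1.24. Of the T cell receptor list 15 of 24 genes were called, with a median of -1.03.

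**Figure D5:**
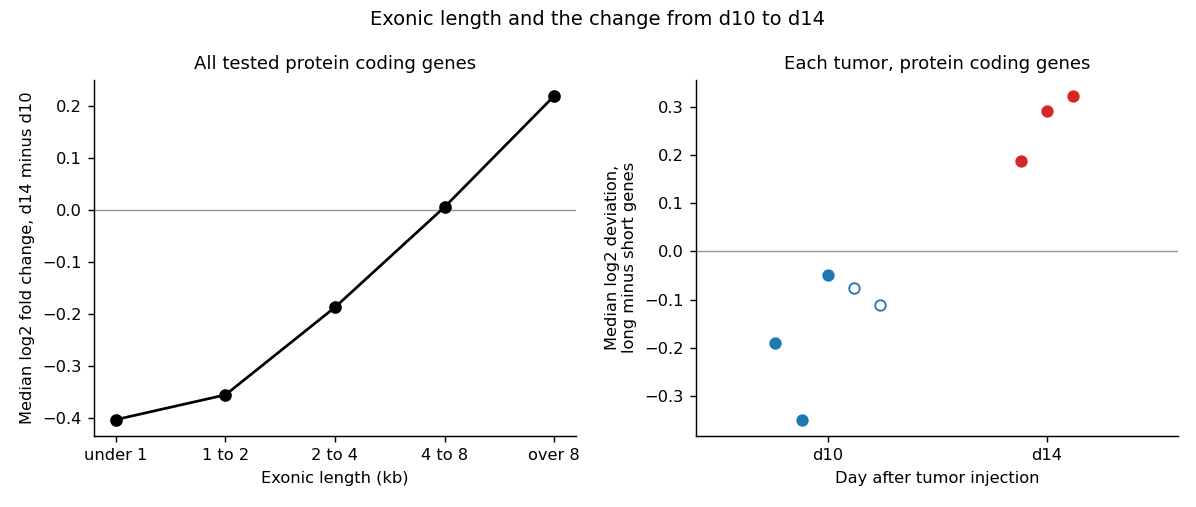
The left panel plots the median log2 fold change, d14 minus d10, of tested protein coding genes by exonic length, which runs from -0.40 under 1 kb to 0.22 over 8 kb. The right panel plots for each tumor the median log2 deviation of genes over 8 kb minus that of genes under 1 kb (open points, d10 replicates 4 and 5), with all 3 d14 tumors above 0 and all 5 d10 tumors below it.

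Among genes that are not protein coding, 13.3% were called higher, beside 3.78% over all tested genes. Calls higher were made for 28 of 68 unprocessed pseudogenes, 20 of 75 sense intronic transcripts, 123 of 535 TEC transcripts and 131 of 561 processed pseudogenes (45 lower). Their median log2 fold changes were 0.96, 0.79, 0.55 and 0.58. Of lincRNAs 63 of 703 were higher and 15 lower (11.1% called). Of antisense genes 23 of 603 were higher and 7 lower (4.98% called). Over all genes that are not protein coding 16.8% were called. The lower calls depended on the part of d10. With replicates 1 to 3 alone 119 processed pseudogenes, 87 antisense genes, 67 lincRNAs and 41 TEC transcripts of those tested were lower. With replicates 4 and 5 alone the counts were 21, 4, 4 and 1. These classes include those by which the d10 parts stand apart, and intronic and TEC transcripts took a larger share of the counts in all d14 tumors, and the part of that in these calls was not tested.

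Sensory receptor genes, which are silent in most tissues, were near the limit of detection, and their calls depended on the part of d10. Over all tested protein coding genes 5.00% were called, 1.54% higher and 3.45% lower. Olfactory receptor genes (Olfr) rose in 10 and fell in 2 of 51 (23.5% called), with a median level of 0.269 CPM. Vomeronasal genes rose in 4 of 12 (Vmn1r, 33.3%) and 4 of 10 (Vmn2r, 40.0%). With d10 replicates 1 to 3 alone 14 of the Olfr genes were lower and 12 higher, and with replicates 4 and 5 alone 0 were lower and 12 higher. For Vmn1r the counts were 5 lower and 4 higher, and 0 lower and 3 higher. Zinc finger genes (Zfp) rose in 12 and fell in 3 of 356 (4.21% called), and 2 of 90 ribosomal protein genes fell (2.22%). Both shares were below the 5.00% called in both directions together, but the Zfp calls were mostly higher, unlike those over all tested protein coding genes. With d10 replicates 4 and 5 alone 28 Zfp genes were higher and 5 lower, beside 3.19% higher and 3.69% lower over all protein coding genes. With replicates 1 to 3 alone 12 were higher and 6 lower. Neither edgeR nor DESeq2 called any of the 12 mitochondrially encoded or 26 histone genes, of which 1 and 5 had an unadjusted p-value below 0.05. The median of the mitochondrially encoded genes was -0.84 relative to d10 replicates 1 to 3 and 0.67 relative to d10 replicates 4 and 5.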

How the data were processed

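RNA-seq counts were deposited by the authors as a table of raw counts per gene for 17 libraries. Per the labels and the study's methods, libraries made with the KAPA RNA HyperPrep kit were sequenced on NextSeq500 (75 bases) or NovaSeq6000 (100 bases), aligned to GRCm38 with TopHat2 2.0.14 and counted with HTSeq on Gencode vM21, keeping unique reads. Whether counting used strand, and which instrument each library ran on, are not given in the sources used here. The study also dropped genes whose level set a sequencing project apart from the rest, a batch effect, and no gene was dropped here for that reason. The project of each library is not given in the sources used here, so its part in the calls was not tested. All 55450 genes were found in the annotation.

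Genes that passed filterByExpr were fitted with edgeR 4.0.16 (quasi-likelihood test, TMM) in R 4.3.3 on the 5 d10 and 3 d14 libraries, and calls needed an adjusted p under 0.05 with more than a 2-fold change. Standard errors are the log2 fold change over the root of F. Replicates are separate mice. The comparison, its members and the gene lists were chosen with earlier results of these data known. Named genes were preset T cell genes, the 10 largest called changes in each direction with a mean of at least 5 CPM, no overlap between the groups and more than 2-fold against both parts of d10, and the called members of each list (up to 4, or all where 5 or fewer). Further list members were named after their values were seen. Alternatives were DESeq2 1.42.0, other scaling and filters, protein coding genes alone, all 5 groups, parts of d10, thinning to 51159050 counts, each tumor left out, the replicate block, adjusted p alone and, chosen after seeing the data, removal of length and GC trends. The fit was tested on simulated data with 200 changed genes. Promoters came from RefSeq (GRCm38.p6), which held 61 of the 81 named genes. Plots were made with matplotlib 3.10.9 in Python 3.11.15.

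Replicate numbers did not pair the tumors: deviations of same-numbered d10 and d14 tumors correlated at 0.09, -0.24 and -0.18.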

Additional observations from a re-analysis of the deposited data

Results flagged for a closer look

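In the 5 d10 tumors a single tumor stood apart from the others in 2 of 81 genes tested, by Dixon's test at the 95% level (a gap above 0.71 of the range), and chance flags about 1 in 20. Tet2 was at 37.4 CPM in d10 replicate 3 and at 18.1 to 21.4 CPM in the other d10 tumors, a gap of 0.826 of the range. Adipoq was at 3.30 CPM in d10 replicate 4 and at 1.53 to 1.97 CPM in the others, a gap of 0.752 of the range.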

How the results depend on the processing

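None of the 81 named genes changed direction under the alternatives tried. Of these, 73 were called, and most were named because they were called, so this was largely fixed by the choice. The count of called genes was 1277, and it was 821 with at least 10 counts in every library, 2001 with all 5 groups in 1 fit, 1969 against d10 replicates 1 to 3 and 3473 on adjusted p alone, while protein coding genes numbered 715 and 2843 on adjusted p alone. Leaving out each tumor in turn gave 281 to 1528 called genes and 166 to 881 protein coding genes, lowest without d14 replicate 2, and the comparison of the d10 parts gave 686 to 1193 (1366 with all tumors) and 318 to 612 (567). DESeq2 called 1526 genes and 844 protein coding genes. Protein coding genes split into 221 higher and 494 lower, and into 272 and 402 without TMM, 273 and 434 in a fit of protein coding genes alone, and 560 and 435 in that fit against d10 replicates 4 and 5. For each of these the cause was not tested. With the replicate block 1589 genes and 865 protein coding genes (270 higher, 595 lower) were called, but the numbers do not pair the tumors: d14 replicates 1, 2 and 3 correlated best with d10 replicates 2, 3 and 2. The comparison of the d10 parts gave 2047 genes with at least 1 count. Genes near the detection limit rest on few reads in every tumor.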
